A study of Mus musculus with 6 samples.

Results

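The genes described here encode the handling of fatty acids in heart muscle, from their release and uptake at the cell surface to oxidation in mitochondria. They comprise 35 genes chosen by name, all of which were found among the 24315 rows of the deposited expression table and all of which passed the filter on low values. Messenger RNA had been sequenced from whole hearts of 6 male C57Bl6J mice aged 6 weeks. Of these animals 3 were homozygous for a floxed cyclin C gene and were labelled without Cre (fl/fl), and 3 had the same floxed alleles plus a Cre transgene under the alpha myosin heavy chain (aMHC) promoter (cKO). That promoter is active in heart muscle cells, so the deletion was directed to cardiomyocytes while other cells of the heart kept the floxed gene. The presence of Cre and the loss of cyclin C differed together, and no hearts with Cre alone were analysed here. Each library came from a separate heart. Levels are given as FPKM, fragment numbers scaled by transcript length and by library size, which allows genes to be compared per length.

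Cyclin C is the regulatory partner of the kinase in the Mediator complex, which connects transcription factors with RNA polymerase II. The adult heart draws most of its energy from long-chain fatty acids. Lipoprotein lipase frees them from circulating triglyceride, CD36 and fatty acid transport proteins bring them into the cell, and acyl-CoA synthetases activate them. Carnitine palmitoyltransferases then move the acyl groups into mitochondria, where the beta-oxidation cycle shortens them and passes electrons to the respiratory chain. Nuclear receptors of the PPAR family, bound to retinoid X receptors, are the best known transcriptional activators of these genes.

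Ccnc, the targeted gene, spanned 7.60 to 10.8 FPKM among controls and 4.53 to 5.81 FPKM among deleted hearts (limma adjusted p = 0.144). Read numbers are unknown, but the spacing of low values gave relative depths from 0.887 to 1.09, with fl/fl 1 set to 1. Summed over all rows, FPKM was lowest in cKO 3 (589196) and highest in fl/fl 2 (768960). Markers of heart muscle were abundant in every library, with 1866 FPKM, for Myh6 in cKO 3, the lowest value of Myl2, Tnnt2 and Myh6.

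No member of the fatty acid set passed the test for a difference between genotypes, while most read somewhat lower in cKO. In the limma fit over 12103 genes, calling genes at a Benjamini-Hochberg adjusted p under 0.05, 0 of 35 members were called (adjusted p from 0.108 to 0.934) where 0.587% of all genes were (0.364% higher and 0.223% lower in cKO). At an unadjusted p under 0.05 there were 10 members lower and 2 higher in cKO, against 6.37% and 6.34% of all genes. The authors' deposited table called 4 of the 35, or 11.4%, against 3.77% of its tested genes. These were Slc27a1, Plin5 and Acadm, lower in cKO (2.08% of its tested genes were called lower), and Ucp3, higher in cKO (1.68% were called higher). The sign of the log2 change was negative for 32 members and positive for 3, whereas 50.4% of all genes had a negative sign. All 3 cKO libraries lay below all 3 fl/fl libraries for 14 members, or 40.0% (10.3% of all genes), and above them for 2 members, or 5.71% (10.1% of all genes). The median log2 change, on the scale of log2(FPKM + 1), was -0.28 over the members and -0.00196 over all genes tested.

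One library on each side stood out across the set. Library fl/fl 2 gave the highest of the 6 values for 28 of 35 members, or 80%, and for 28.6% of all genes. Library cKO 3 gave the lowest value for 23 members, or 65.7%, and for 19.9% of all genes. Without fl/fl 2 the median log2 change of the members was -0.16, without cKO 3 it was -0.20, and with quantile normalization of all 6 libraries it was -0.17. Expressed as the median deviation from the fl/fl mean on the log2 scale, the members stood at -0.13, 0.19 and -0.07 in fl/fl 1 to 3 and at -0.14, -0.23 and -0.40 in cKO 1 to 3. By this measure cKO 1 and fl/fl 1 were close together, with fl/fl 2 and cKO 3 at the ends. Replicate 3 of both genotypes differed from the other hearts in clock genes, as described below for Angptl4. The part of that division in the member values was not tested.

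**Figure D1:**
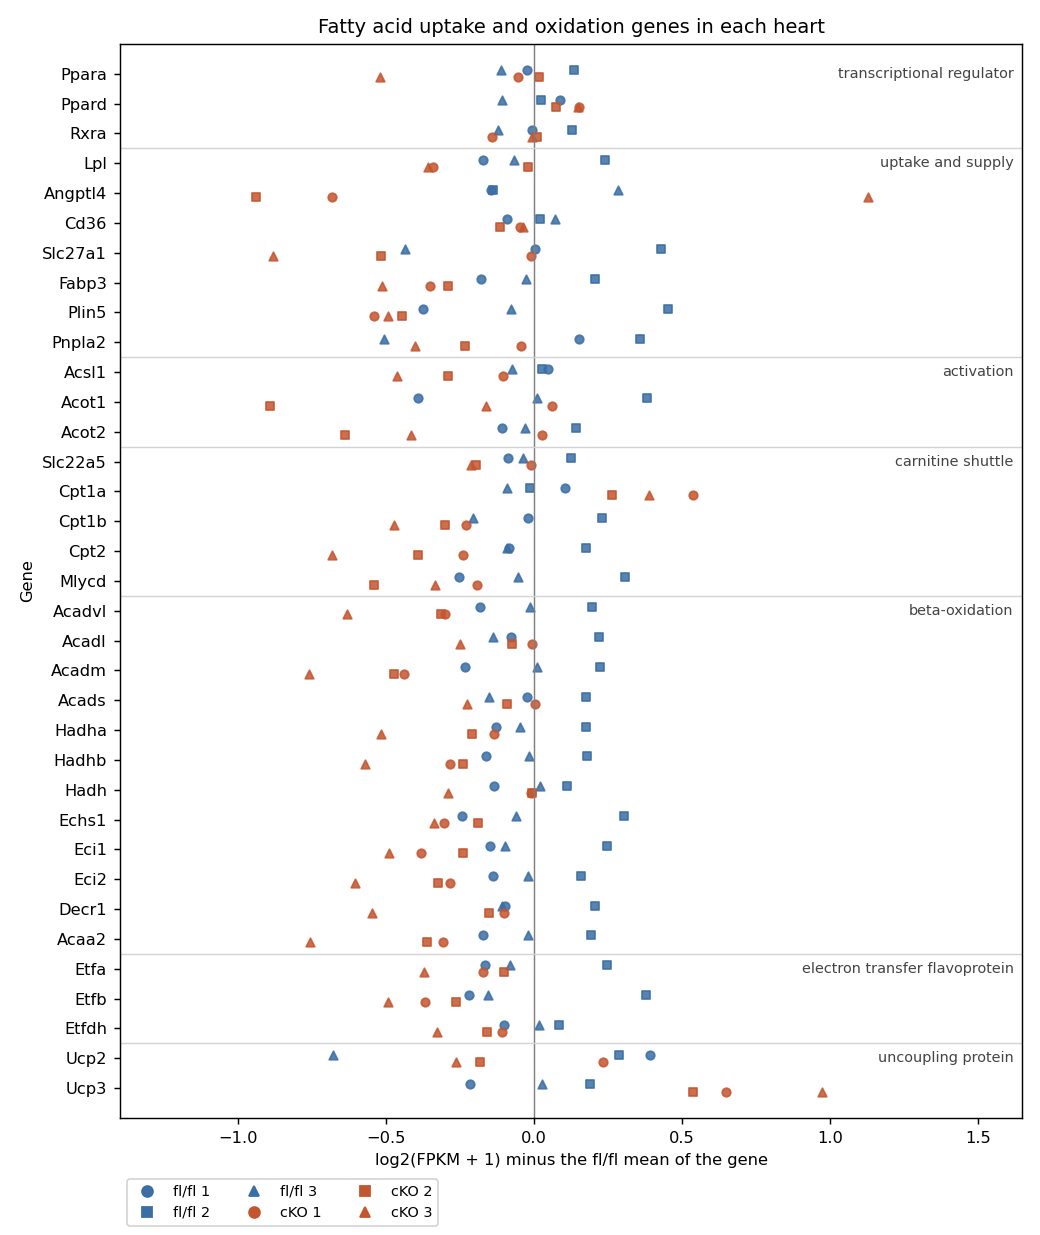
Each row is a gene and each point a heart, placed by its log2(FPKM + 1) minus the gene's mean in fl/fl; blue marks fl/fl, orange cKO, and circle, square and triangle mark replicates 1, 2 and 3. The blue squares of fl/fl 2 lie to the right for 28 of 35 genes and the orange triangles of cKO 3 to the left for 23, while Cpt1a and Ucp3 show all 3 orange points to the right.

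Several cell types of the heart express these genes, and in whole tissue fewer cells of a type and less RNA per cell cannot be told apart. Of 14 markers of ventricular cardiomyocytes 11 had a negative sign (median log2 change -0.58), and their summed level was 78746 to 105839 FPKM in fl/fl and 54370 to 60542 FPKM in cKO. All 12 endothelial markers had a positive sign (median 0.32), with a summed level of 619 to 671 FPKM in fl/fl and 741 to 896 FPKM in cKO. Of 10 fibroblast markers 10 were positive (median 0.22; summed level 1726 to 1947 FPKM in fl/fl and 1955 to 2190.4 FPKM in cKO), while 10 macrophage markers split into 3 positive and 7 negative (median -0.05). The atrial list, with 9 of 10 signs negative, summed to 3633 to 6420.1 FPKM in fl/fl and 1244 to 4267 FPKM in cKO. Most fat markers were high in a single heart, fl/fl 1, but Fabp4 and Cidea were not. Fabp4 read 1800, 1807 and 1065 FPKM across fl/fl hearts 1 to 3, against 1411, 1501 and 1794 FPKM across cKO hearts 1 to 3. Cidea read 40.2, 32.7 and 32.5 FPKM across fl/fl hearts 1 to 3, against 25.2, 27.8 and 23.1 FPKM across cKO hearts 1 to 3. The brown fat gene Ucp1 read 18.1, 0.198 and 0.01 FPKM across fl/fl hearts 1 to 3, against 0.01, 0.01 and 0.01 FPKM across cKO hearts 1 to 3, where 0.01 stands for 0 in this table, and Adipoq, the adiponectin gene, read 56.4, 3.16 and 1.28 FPKM across fl/fl hearts 1 to 3, against 0.752, 2.05 and 0.0776 FPKM across cKO hearts 1 to 3. Of 10 tested adipocyte markers 9 had a negative sign, and the 13 listed summed to 1118 to 2567 FPKM in fl/fl and 1448 to 1827 FPKM in cKO, most of it from Fabp4. The part of these markers in the values below was not tested.

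Promoter sequence was examined because PPARs bind direct repeats of the core AGGTCA spaced by a single base. RefSeq promoters of GRCm38.p6 were matched for 30 of the 35 members, with 35 listed starts, and none was matched for Cpt1b, Acaa2, Decr1, Lpl and Angptl4. In the 250 bases before a start, the repeat AGGNCANAGGNCA was found on neither strand of any of these 35, and in 0.34% of 32851 promoters genome-wide. The extended core TCAAGGTCA of estrogen-related receptors was likewise found in 0 of the 35 and in 0.39% of all, and the clock E-box CACGTG in 1 (Slc27a1) and in 6.02% of all. The repeat and the extended core are so rare genome-wide that 0 among 35 promoters is the likely count for any set. Sites beyond the 250 bases or with other letters were not searched, so these counts do not show that such elements are absent. The plain core AGGTCA, which is contained in TCAAGGTCA and is one form of either unit of the repeat as searched, occurred in 8 of 35 member promoters, or 22.9%, and in 14.0% of all promoters. The 8 genes were Rxra, Cd36, Plin5, Cpt1a, Acadvl, Acadm, Echs1 and Ucp3, so they include both members that were higher in every cKO heart and members that were lower. The 250 bases before the start are printed for those 2 and for 2 of the lower ones that the authors' deposited table called, each read 5′ to 3′ along the gene's own strand, with AGGTCA or its reverse complement in capitals:
Ucp3 (chr7:100472741-100472990, plus strand): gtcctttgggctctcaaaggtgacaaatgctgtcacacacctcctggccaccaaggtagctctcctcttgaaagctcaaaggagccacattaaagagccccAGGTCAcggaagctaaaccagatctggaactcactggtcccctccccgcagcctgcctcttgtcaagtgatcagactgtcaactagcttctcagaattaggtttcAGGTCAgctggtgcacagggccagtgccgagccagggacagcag
Cpt1a (chr19:3323051-3323300, plus strand): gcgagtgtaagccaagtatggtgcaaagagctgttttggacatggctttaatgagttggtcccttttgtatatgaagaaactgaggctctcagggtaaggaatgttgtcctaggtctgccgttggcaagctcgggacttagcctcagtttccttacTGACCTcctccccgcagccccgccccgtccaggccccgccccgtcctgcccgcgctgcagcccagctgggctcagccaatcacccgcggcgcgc
Acadm (chr3:153944644-153944893, minus strand): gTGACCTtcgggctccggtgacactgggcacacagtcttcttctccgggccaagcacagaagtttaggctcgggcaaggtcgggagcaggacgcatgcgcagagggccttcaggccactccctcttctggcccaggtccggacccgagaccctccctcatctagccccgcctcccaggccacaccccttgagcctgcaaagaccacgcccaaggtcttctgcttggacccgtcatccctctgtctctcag
Plin5 (chr17:56117549-56117798, minus strand): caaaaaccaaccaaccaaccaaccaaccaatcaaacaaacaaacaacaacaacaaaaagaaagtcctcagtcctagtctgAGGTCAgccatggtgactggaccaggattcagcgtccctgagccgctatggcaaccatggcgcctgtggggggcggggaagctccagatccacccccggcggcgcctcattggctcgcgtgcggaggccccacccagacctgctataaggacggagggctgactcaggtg

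In these windows Ucp3 held 2 copies of the core, beginning at positions -149 and -44 relative to the start, and the other 3 genes held 1 each. Such a match describes letters in a window and does not show binding.

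Among the transcriptional regulators, Ppara, the main PPAR of heart muscle, read 13.9, 15.7 and 13 FPKM across fl/fl hearts 1 to 3, against 13.6, 14.3 and 9.58 FPKM across cKO hearts 1 to 3. Only cKO 3 stood apart, below every other heart, and the groups overlapped (log2 change -0.19, SE 0.15, adjusted p = 0.64). Ppard, the second PPAR of muscle, read 15.1, 14.4 and 13 FPKM across fl/fl hearts 1 to 3, against 15.8, 15 and 15.8 FPKM across cKO hearts 1 to 3 and overlapped as well (log2 change 0.12, SE 0.09, adjusted p = 0.603). Rxra, a retinoid X receptor that pairs with both, averaged 19.3 ± 1.78 FPKM (fl/fl) against 18.7 ± 1.13 FPKM (cKO) (SD, n = 3 each; adjusted p = 0.879). The 95% intervals of the log2 changes were -0.54 to 0.17 for Ppara, -0.09 to 0.34 for Ppard and -0.28 to 0.19 for Rxra, without adjustment for the number of genes. Among 18 other regulators of the pathway, such as coactivators, corepressors and estrogen-related receptors, 0 were called by limma in either direction, 0 had an unadjusted p under 0.05, and 11 signs were positive and 7 negative. Esrra, the estrogen-related receptor alpha, stood at 90.5 ± 16.2 FPKM (fl/fl) against 75.8 ± 4.62 FPKM (cKO) (SD, n = 3 each; adjusted p = 0.489), and Nrip1, a nuclear receptor corepressor, at 4.61 ± 1.53 FPKM (fl/fl) against 6.02 ± 0.391 FPKM (cKO) (adjusted p = 0.452).

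All 7 supply and uptake genes had a negative sign, 2 of which (Cd36 and Fabp3) turned with quantile normalization. Their median log2 change was -0.24, or -0.40 without fl/fl 3 and -0.16 with quantile normalization. Fabp3 and Plin5 were lower in every cKO heart, 2 of 7 where 10.3% of all genes were, and the other 5 overlapped. Lpl, the lipase that frees fatty acids from triglyceride at the vessel wall, read 1438, 1916 and 1545 FPKM across fl/fl hearts 1 to 3, against 1279.5, 1596 and 1265 FPKM across cKO hearts 1 to 3. Its groups overlapped through cKO 2, the second highest of the 6 hearts (log2 change -0.24, SE 0.16, adjusted p = 0.56). Cd36, the main fatty acid translocase of heart muscle and also an endothelial gene, varied little among hearts at 755, 815 and 846 FPKM across fl/fl hearts 1 to 3, against 779, 743 and 783 FPKM across cKO hearts 1 to 3. Its log2 change was -0.07 with a 95% interval of -0.31 to 0.18, and it changed sign with quantile normalization (0.081). Slc27a1, a fatty acid transport protein, read 68.5, 92.3 and 50.2 FPKM across fl/fl hearts 1 to 3, against 67.8, 47.4 and 36.6 FPKM across cKO hearts 1 to 3. Library cKO 1 lay between fl/fl 3 and fl/fl 1, so the groups overlapped (log2 change -0.47, SE 0.26, adjusted p = 0.487), whereas in the authors' deposited table Slc27a1 had a q-value of 0.0335.

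Fabp3, the fatty acid binding protein of heart muscle, was the most abundant member at 7389, 9645 and 8212 FPKM across fl/fl hearts 1 to 3, against 6552, 6846 and 5857 FPKM across cKO hearts 1 to 3. All cKO hearts lay below all fl/fl hearts (log2 change -0.39, SE 0.17, adjusted p = 0.41), but with quantile normalization the log2 change was 0.051. Of the 50-base stretches in its annotated transcripts 37.3% also occur in transcripts of other genes, mainly a Fabp3 pseudogene, so its reads may not be fully separable. Plin5, a lipid droplet protein of oxidative tissue that holds the droplet near mitochondria, read 70.1, 125 and 86.2 FPKM across fl/fl hearts 1 to 3, against 62.4, 66.7 and 64.4 FPKM across cKO hearts 1 to 3. The cKO hearts sat within a narrow band just below the lowest fl/fl heart (log2 change -0.49, SE 0.19, adjusted p = 0.351). Its q-value in the authors' deposited table was 0.0126. Pnpla2, the triglyceride lipase of the droplet, read 155, 179 and 97.8 FPKM across fl/fl hearts 1 to 3, against 135, 118 and 105 FPKM across cKO hearts 1 to 3, with the lowest and the highest heart both in fl/fl (log2 change -0.23, SE 0.21, adjusted p = 0.687).

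Angptl4, a secreted inhibitor of lipoprotein lipase and a PPAR target, showed the widest spread of the set. It read 11.4, 11.5 and 15.7 FPKM across fl/fl hearts 1 to 3, against 7.55, 6.16 and 29 FPKM across cKO hearts 1 to 3. Hearts cKO 1 and cKO 2 lay below all fl/fl hearts and cKO 3 above them, so the log2 change of -0.16 had a 95% interval of -1.27 to 0.94. The arithmetic means ran the other way, at 12.9 ± 2.47 FPKM (fl/fl) against 14.2 ± 12.8 FPKM (cKO) (SD, n = 3 each), so its place among the negative signs rests on the log scale. Without cKO 3 it was -0.81, without cKO 2 it was 0.22, and without cKO 1 it was 0.095. Replicate 3 was also the highest of the fl/fl hearts for Angptl4. In both genotypes replicate 3 differed from the other hearts in clock genes, whose 12 listed members summed to 177 and 129 FPKM there and to 359 to 435 FPKM in the other 4 hearts. The part of this division in the values of Angptl4 and of the other members was not tested. Pdk4, the pyruvate dehydrogenase kinase that restrains glucose oxidation and another PPAR target, read 155, 159 and 191 FPKM across fl/fl hearts 1 to 3, against 306, 188 and 315 FPKM across cKO hearts 1 to 3, again highest in cKO 3 (log2 change 0.65, SE 0.20, adjusted p = 0.258). Pdk4 was chosen after its values were seen, and the authors' deposited table gives it a q-value of 0.00301.

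Of 17 tested genes among 21 others for uptake, storage and lipolysis, limma called 0, with 13 positive and 4 negative signs and a median log2 change of 0.09. That median was 0.018 without fl/fl 3, 0.061 without cKO 3, 0.16 without cKO 1, 0.17 without fl/fl 2 and 0.20 with quantile normalization. At an unadjusted p under 0.05 there was 1 gene, Gpam, higher in cKO, as were 6.34% of all genes. Gpam, the mitochondrial acyltransferase that begins triglyceride synthesis, read 66.6, 54.9 and 49.8 FPKM across fl/fl hearts 1 to 3, against 98.7, 83.4 and 73.5 FPKM across cKO hearts 1 to 3 (log2 change 0.57, SE 0.14, adjusted p = 0.179). All its cKO values lay above all its fl/fl values, and its q-value in the authors' deposited table was 0.00936. Cav1, the caveolin of endothelial cells and adipocytes, also lay higher in every cKO heart (log2 change 0.26, SE 0.11, adjusted p = 0.403).

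Activation was represented by Acsl1, the principal long-chain acyl-CoA synthetase of the heart, at 332, 327 and 305 FPKM across fl/fl hearts 1 to 3, against 299, 263 and 233 FPKM across cKO hearts 1 to 3. Every cKO heart lay below every fl/fl heart (log2 change -0.29, SE 0.12, adjusted p = 0.377). The thioesterases Acot1 and Acot2, cytosolic and mitochondrial, undo this step by releasing free fatty acid from acyl-CoA. Acot2 read 29.1, 34.8 and 30.8 FPKM across fl/fl hearts 1 to 3, against 32.1, 19.9 and 23.4 FPKM across cKO hearts 1 to 3, with cKO 1 among the fl/fl values (log2 change -0.34, SE 0.17, adjusted p = 0.431), and Acot1 read 8.74, 15.6 and 11.9 FPKM across fl/fl hearts 1 to 3, against 12.3, 5.89 and 10.4 FPKM across cKO hearts 1 to 3 (log2 change -0.33, SE 0.27, adjusted p = 0.636). The pair lies side by side on chromosome 12, and 24.5% of the 50-base stretches of Acot2 transcripts occur in Acot1, so reads could be split between them. The ratio of Acot2 to Acot1 within a heart was 3.33, 2.23 and 2.59 across fl/fl hearts 1 to 3, against 2.6, 3.37 and 2.24 across cKO hearts 1 to 3, overlapping between genotypes (two-sided exact permutation p = 0.7).

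In the carnitine shuttle the liver-type and muscle-type forms of carnitine palmitoyltransferase 1, which catalyse the rate-limiting entry step, lay on opposite sides of their controls. The muscle form Cpt1b read 268, 319 and 236 FPKM across fl/fl hearts 1 to 3, against 232, 221 and 196 FPKM across cKO hearts 1 to 3. The form named for liver, Cpt1a, which the heart also expresses, read 21.7, 19.9 and 18.8 FPKM across fl/fl hearts 1 to 3, against 29.6, 24.3 and 26.6 FPKM across cKO hearts 1 to 3. The groups did not overlap for either gene. For Cpt1a the statistics were log2 change 0.40, SE 0.11, adjusted p = 0.2, and for Cpt1b log2 change -0.33, SE 0.13, adjusted p = 0.366. The ratio of Cpt1b to Cpt1a, which does not depend on the scaling of a library, was 12.4, 16 and 12.6 across fl/fl hearts 1 to 3, against 7.82, 9.08 and 7.35 across cKO hearts 1 to 3. It averaged 13.7 ± 2.06 in fl/fl and 8.08 ± 0.893 in cKO (SD, n = 3 each), with every cKO heart below every fl/fl heart. The two-sided exact permutation p was 0.1, the smallest that 3 against 3 allows, and 0.24 after Benjamini-Hochberg adjustment over the 6 within-heart ratios examined. The part of the mix of cell types in the ratio of Cpt1b to Cpt1a was not tested. The Cpt1b row overlaps the rows Chkb and ChkbCpt1b of the deposited table, and 78.6% of its 50-base stretches occur in the gene model Gm44502 of GENCODE M21, so reads of this locus may have been split.

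The other shuttle genes had negative signs. Cpt2, the partner enzyme on the inner membrane, read 130.3, 156 and 129.8 FPKM across fl/fl hearts 1 to 3, against 117, 105 and 85.7 FPKM across cKO hearts 1 to 3, without overlap (log2 change -0.44, SE 0.14, adjusted p = 0.264; q-value 0.051 in the authors' deposited table). Mlycd, which removes malonyl-CoA, the inhibitor of the entry step, read 69.9, 104 and 80.4 FPKM across fl/fl hearts 1 to 3, against 72.9, 57.1 and 66 FPKM across cKO hearts 1 to 3, overlapping through cKO 1 (log2 change -0.36, SE 0.16, adjusted p = 0.402). Slc22a5, the carnitine importer OCTN2, averaged 16.5 ± 1.37 FPKM (fl/fl) against 14.9 ± 1.28 FPKM (cKO) (SD, n = 3 each; adjusted p = 0.601), and 26.1% of its 50-base stretches occur in transcripts of Slc22a21. Among 15 other genes of activation, thioester cleavage and carnitine handling limma called 0. At an unadjusted p under 0.05, where 6.37% of all genes were lower and 6.34% higher, 2 of the 15 were lower in cKO. These were Slc25a20, the carnitine-acylcarnitine translocase (138 ± 15.2 FPKM (fl/fl) against 110.2 ± 14.2 FPKM (cKO); adjusted p = 0.36), and Crat, carnitine acetyltransferase (156 ± 21.4 FPKM (fl/fl) against 127 ± 10.9 FPKM (cKO); adjusted p = 0.392; SD, n = 3 each).

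**Figure D2:**
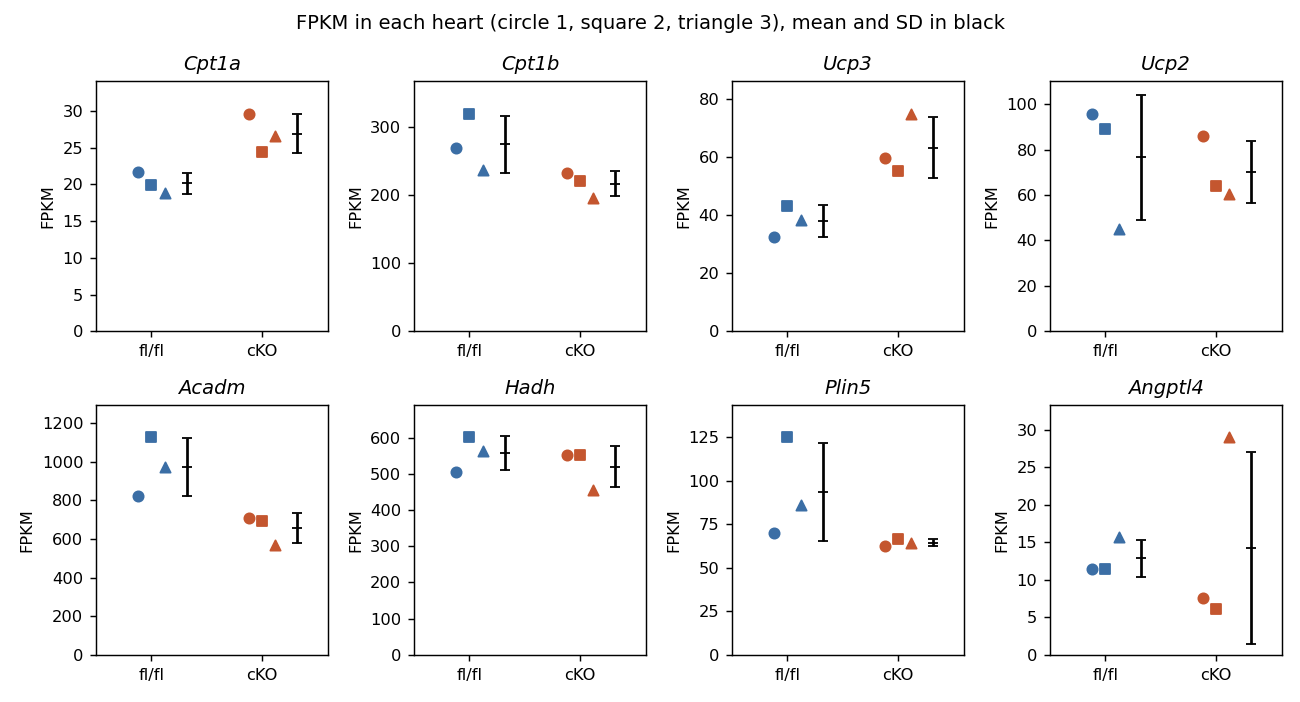
FPKM of 8 genes in each heart, with genotype on the horizontal axis, points for single hearts (circle, square and triangle for replicates 1, 2 and 3) and the mean with SD in black beside them. Cpt1a and Ucp3 lie higher in all cKO hearts, Cpt1b, Acadm and Plin5 lower, Hadh and Ucp2 overlap, and for Angptl4 a single heart, cKO 3, sits at 29 FPKM against 7.55 and 6.16 FPKM in cKO 1 and cKO 2.

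All 12 mitochondrial beta-oxidation enzymes had a negative sign, of which Acadl and Hadh turned with quantile normalization. The median log2 change was -0.33, or -0.17 with quantile normalization. In 7 of the 12 every cKO heart lay below every fl/fl heart, where 10.3% of all genes and 29 of 42 respiratory chain genes did so. In all 12 the highest heart was fl/fl 2 and the lowest was cKO 3. Of the 42 respiratory chain genes, fl/fl 2 was highest for 39 and cKO 3 was lowest for 33. Over all genes these shares were 28.6% and 19.9%. Acadm encodes the dehydrogenase for medium-length chains, with values of 821, 1125 and 970.2 FPKM across fl/fl hearts 1 to 3, against 711, 695 and 569 FPKM across cKO hearts 1 to 3 (log2 change -0.56, SE 0.15, adjusted p = 0.216; q-value 0.0283 in the authors' deposited table). Its cKO hearts all lay below the lowest fl/fl heart, and its 95% interval was -0.91 to -0.20.

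Of the other dehydrogenases of the first step, Acadvl, the very-long-chain enzyme, read 609, 792 and 684 FPKM across fl/fl hearts 1 to 3, against 560.3, 555 and 446 FPKM across cKO hearts 1 to 3 (log2 change -0.42, SE 0.14, adjusted p = 0.3), also without overlap, and 26.9% of its 50-base stretches occur in transcripts of Dvl2. Acadl and Acads, the long-chain and short-chain enzymes, had smaller log2 changes. Acadl read 781, 961 and 749 FPKM across fl/fl hearts 1 to 3, against 821, 783 and 693 FPKM across cKO hearts 1 to 3. Acads read 167, 191 and 152 FPKM across fl/fl hearts 1 to 3, against 169.7, 159 and 144 FPKM across cKO hearts 1 to 3. Their groups overlapped, with log2 changes of -0.11 (95% interval -0.43 to 0.20) and -0.11 (95% interval -0.37 to 0.16), and the sign of Acadl turned with quantile normalization (0.022). The intervals of Acadm, Acadl and Acads overlap, and no test of a difference among these enzymes was made.

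Hadha and Hadhb encode the alpha and beta subunits of the trifunctional protein, which carries out the later steps on long chains. Hadhb read 1482, 1876 and 1637 FPKM across fl/fl hearts 1 to 3, against 1359.6, 1403 and 1115 FPKM across cKO hearts 1 to 3. Hadha read 482, 594 and 509 FPKM across fl/fl hearts 1 to 3, against 479, 454 and 367 FPKM across cKO hearts 1 to 3. Both were lower in every cKO heart than in every fl/fl heart, with log2 changes of -0.37 (SE 0.15, adjusted p = 0.374) and -0.29 (SE 0.14, adjusted p = 0.428). The ratio of Hadhb to Hadha was 3.08, 3.16 and 3.22 across fl/fl hearts 1 to 3, against 2.84, 3.09 and 3.04 across cKO hearts 1 to 3, overlapping between genotypes (two-sided exact permutation p = 0.2). RefSeq places them head to head on chromosome 5 of GRCm38, with 272 bases between the starts, Hadha on the minus and Hadhb on the plus strand. The stretch before Hadhb therefore lies between both genes, and it was chosen for display after the values of both subunits were seen:
Hadhb (chr5:30155003-30155252, plus strand): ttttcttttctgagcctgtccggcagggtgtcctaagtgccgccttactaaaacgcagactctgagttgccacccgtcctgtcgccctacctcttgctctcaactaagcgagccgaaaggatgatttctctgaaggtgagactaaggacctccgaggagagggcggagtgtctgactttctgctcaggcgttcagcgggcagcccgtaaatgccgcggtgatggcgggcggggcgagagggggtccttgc

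This stretch, read 5′ to 3′ from the RefSeq promoter table of GRCm38.p6, holds no copy of the nuclear receptor core AGGTCA on either strand. A share of 18.1% of the 50-base stretches of Hadhb occurs in transcripts of a single other gene model, Gm13910, in GENCODE M21.

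Acaa2, the thiolase that releases acetyl-CoA from medium and short chains, read 838, 1079 and 932 FPKM across fl/fl hearts 1 to 3, against 763, 734 and 559 FPKM across cKO hearts 1 to 3 and did not overlap (log2 change -0.48, SE 0.16, adjusted p = 0.285). Eci1 and Eci2, the isomerases that move double bonds of unsaturated fatty acids, did not overlap either. Eci1 read 325, 428 and 337 FPKM across fl/fl hearts 1 to 3, against 277, 305 and 257 FPKM across cKO hearts 1 to 3 (adjusted p = 0.319). Eci2 read 137, 169 and 149 FPKM across fl/fl hearts 1 to 3, against 124, 120.4 and 98.9 FPKM across cKO hearts 1 to 3 (adjusted p = 0.256). Decr1, the dienoyl-CoA reductase for polyunsaturated chains, overlapped at 227 ± 29.1 FPKM (fl/fl) against 189 ± 30.4 FPKM (cKO) (SD, n = 3 each; adjusted p = 0.485). Echs1, the short-chain enoyl-CoA hydratase, stood at 396 ± 78.8 FPKM (fl/fl) against 323 ± 17.7 FPKM (cKO) (adjusted p = 0.47). Hadh, the short-chain hydroxyacyl-CoA dehydrogenase, had the smallest change of the step. It read 506, 601 and 564 FPKM across fl/fl hearts 1 to 3, against 551, 552 and 454 FPKM across cKO hearts 1 to 3, with cKO 1 and cKO 2 inside the fl/fl range, and its log2 change of -0.10 was 0.033 with quantile normalization and 0.0011 within replicates 1 and 2.

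**Figure D3:**
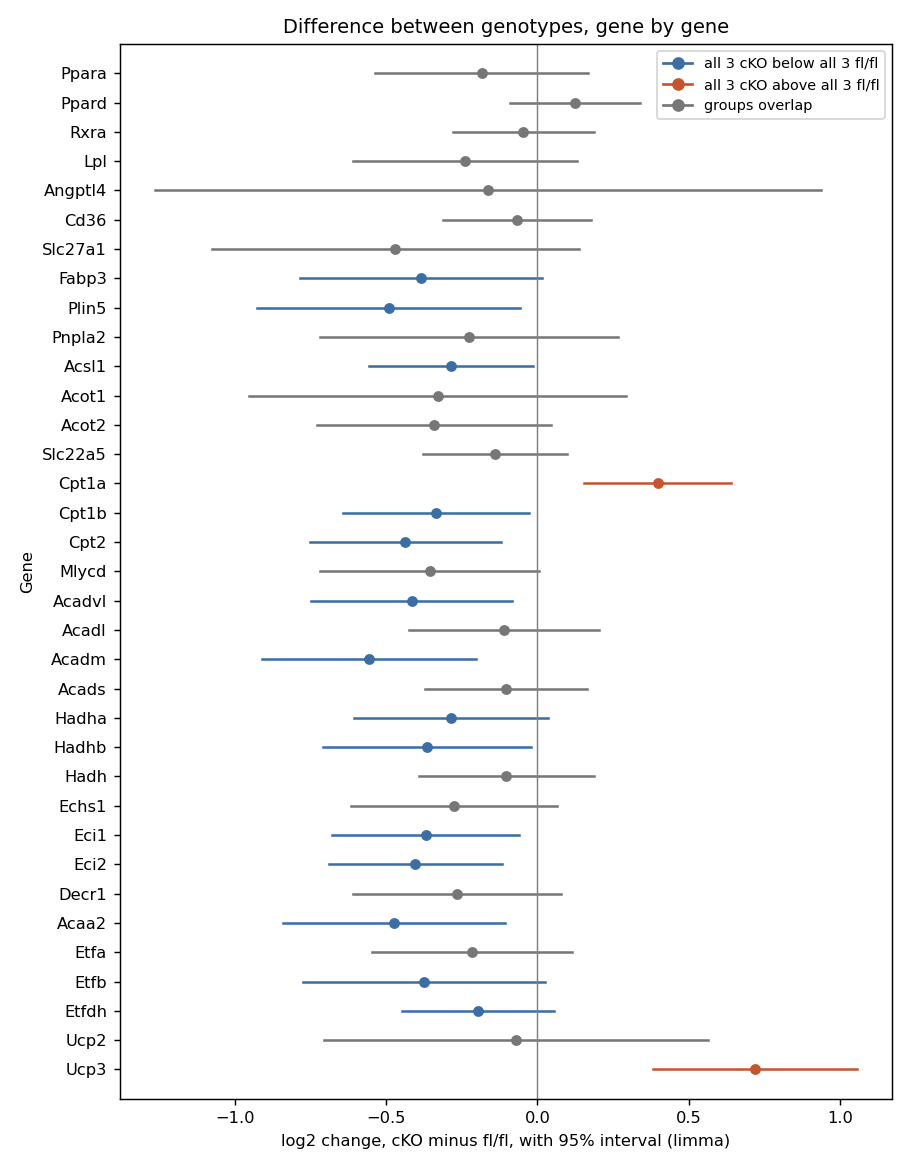
Log2 change of each gene, cKO minus fl/fl on the log2(FPKM + 1) scale, as a point with its 95% interval from limma, not adjusted for the number of genes; colour shows whether the 3 hearts of each genotype overlap. Blue marks the 14 genes lower in every cKO heart, the 2 orange ones are Cpt1a and Ucp3, and Angptl4 has the widest interval, -1.27 to 0.94.

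Electrons from the dehydrogenases pass through the electron transfer flavoprotein, made of Etfa and Etfb, to the oxidoreductase Etfdh. Etfb read 865, 1310.1 and 904 FPKM across fl/fl hearts 1 to 3, against 781, 839.6 and 716 FPKM across cKO hearts 1 to 3 (log2 change -0.38, SE 0.17, adjusted p = 0.416) and did not overlap. Etfa read 650.2, 867 and 689.6 FPKM across fl/fl hearts 1 to 3, against 647, 680.3 and 564 FPKM across cKO hearts 1 to 3 (log2 change -0.22, SE 0.14, adjusted p = 0.559), with cKO 2 above fl/fl 1. Etfdh averaged 451 ± 29.2 FPKM (fl/fl) against 393 ± 30.7 FPKM (cKO) (SD, n = 3 each; adjusted p = 0.484), each cKO heart lying below each fl/fl heart. The ratio of Etfb to Etfa was 1.33, 1.51 and 1.31 across fl/fl hearts 1 to 3, against 1.21, 1.23 and 1.27 across cKO hearts 1 to 3, lower in every cKO heart (two-sided exact permutation p = 0.1, adjusted p = 0.24 over the 6 ratios). Etfb shares 43.8% of its 50-base stretches with the gene model Gm45233.

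The uncoupling proteins Ucp2 and Ucp3 are mitochondrial carriers of the inner membrane, and Ucp3 is a muscle gene whose message is known to increase with fatty acid supply. They lie 6904 bases apart on chromosome 7. Ucp3 read 32.3, 43.1 and 38.3 FPKM across fl/fl hearts 1 to 3, against 59.6, 55 and 74.8 FPKM across cKO hearts 1 to 3, and every cKO heart lay well above every fl/fl heart. It had the smallest p of the 35 members (log2 change 0.72, SE 0.15, adjusted p = 0.108), ranking 131 of 12103 genes. In the authors' deposited table its q-value was 0.00301 and its ratio of group FPKM 1.67. Under the 17 alternative settings its log2 change ran from 0.59 to 0.81, with limma adjusted p from 0.0387 to 0.376. Ucp2 read 95.8, 89.1 and 45.1 FPKM across fl/fl hearts 1 to 3, against 85.7, 64 and 60.5 FPKM across cKO hearts 1 to 3, with the highest and the lowest heart both in fl/fl, and its log2 change of -0.07 was 0.12 without fl/fl 1, 0.073 without fl/fl 2 and 0.025 without cKO 3. The ratio of Ucp3 to Ucp2 was 0.337, 0.483 and 0.849 across fl/fl hearts 1 to 3, against 0.695, 0.86 and 1.24 across cKO hearts 1 to 3, overlapping through fl/fl 3 (two-sided exact permutation p = 0.2).

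Lists around the pathway were compared with the members on the same scale. The respiratory chain, represented by 42 subunits, had 42 negative signs and a median log2 change of -0.28, and 14 citric acid cycle genes had 12 negative signs and a median of -0.23. Limma called 0 genes in each, with 12 and 3 genes lower and 0 higher at an unadjusted p under 0.05 (6.37% of all genes were lower and 6.34% higher). With quantile normalization these medians were -0.12 and -0.10, and without fl/fl 2 both were -0.16. Ndufa13 and Ndufs4, subunits of complex I, had the smallest p of the first list (adjusted p = 0.225 and 0.241), and Idh3b and Suclg1 of the second (adjusted p = 0.213 and 0.239). All 4 were lower in every cKO heart, and the authors' deposited table called Ndufa13 (q-value 0.0126) and Idh3b (q-value 0.0283). The median deviation of the 12 beta-oxidation members was -0.28, -0.23 and -0.53 in cKO 1 to 3, and that of the respiratory chain was -0.25, -0.23 and -0.33. The difference between these medians was -0.032 in cKO 1, 0.0023 in cKO 2 and -0.20 in cKO 3, and it was not tested.

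Glycolysis as a list was split in sign, with 8 positive and 11 negative signs among 19 genes and a median of -0.02. Limma called 0 of them, with 2 higher and 2 lower at an unadjusted p under 0.05 (6.34% and 6.37% of all genes). The glycolysis median had no stable sign either, at 0.10 with quantile normalization, -0.11 without fl/fl 1 and 0.052 without cKO 3. The hexokinases lay on opposite sides of their controls. Hk1, the broadly expressed form, read 42.8, 48.3 and 45 FPKM across fl/fl hearts 1 to 3, against 63.3, 69.3 and 63.9 FPKM across cKO hearts 1 to 3 (log2 change 0.52, SE 0.09, adjusted p = 0.0633), and Hk2, the insulin-responsive form of muscle, read 65.7, 82.3 and 65.4 FPKM across fl/fl hearts 1 to 3, against 54.3, 59.3 and 44.6 FPKM across cKO hearts 1 to 3 (log2 change -0.43, SE 0.14, adjusted p = 0.275). The genotypes did not overlap for either gene. Hk1 passed the threshold with median-ratio scaling (adjusted p = 0.0491), with quantile normalization (0.0203) with array weights (0.034) and with a replicate block (0.0292), and its limma adjusted p ran from 0.0203 to 0.314 over all alternatives. In the authors' deposited table its q-value was 0.011.

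Oxidation genes outside the 35 gave smaller medians. Of 19 other genes of mitochondrial oxidation and its regulation limma called 0, with 14 negative signs and a median of -0.13 (-0.018 if fl/fl 2 was left out, -0.035 if cKO 3 was, and -0.20 if fl/fl 1 was), and 2 were higher and 3 lower at an unadjusted p under 0.05. Over all genes 6.34% were higher and 6.37% lower at that threshold. Acsf2, a mitochondrial acyl-CoA synthetase, read 17, 14.4 and 12 FPKM across fl/fl hearts 1 to 3, against 21.1, 20.6 and 21.1 FPKM across cKO hearts 1 to 3 (log2 change 0.52, SE 0.13, adjusted p = 0.162), higher in every cKO heart. Acadsb, the dehydrogenase of short branched chains, read 74.4, 91 and 83.5 FPKM across fl/fl hearts 1 to 3, against 66.8, 64 and 57.4 FPKM across cKO hearts 1 to 3 (log2 change -0.40, SE 0.11, adjusted p = 0.213), lower in every cKO heart. Of 14 tested genes of peroxisomal oxidation, from 16 listed, limma called 0, with 6 positive and 8 negative signs. At an unadjusted p under 0.05 this list had 2 lower and 0 higher, against 6.37% and 6.34% of all genes. Its median of -0.02 had no stable sign, reaching -0.10 without cKO 1 and 0.030 without cKO 3. Abcd2, a peroxisomal transporter of very-long-chain acyl-CoA, read 4.62, 2.92 and 2.9 FPKM across fl/fl hearts 1 to 3, against 1.74, 1.71 and 1.51 FPKM across cKO hearts 1 to 3 (log2 change -0.73, SE 0.17, adjusted p = 0.156). It was highest in fl/fl 1, the heart where most fat markers were high. It was also lower in every cKO heart than in every fl/fl heart, with a q-value of 0.00301 in the authors' deposited table. Scp2, which holds a peroxisomal thiolase and a lipid carrier, averaged 211 ± 19.1 FPKM (fl/fl) against 169 ± 15.2 FPKM (cKO) (SD, n = 3 each; adjusted p = 0.311).

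**Figure D4:**
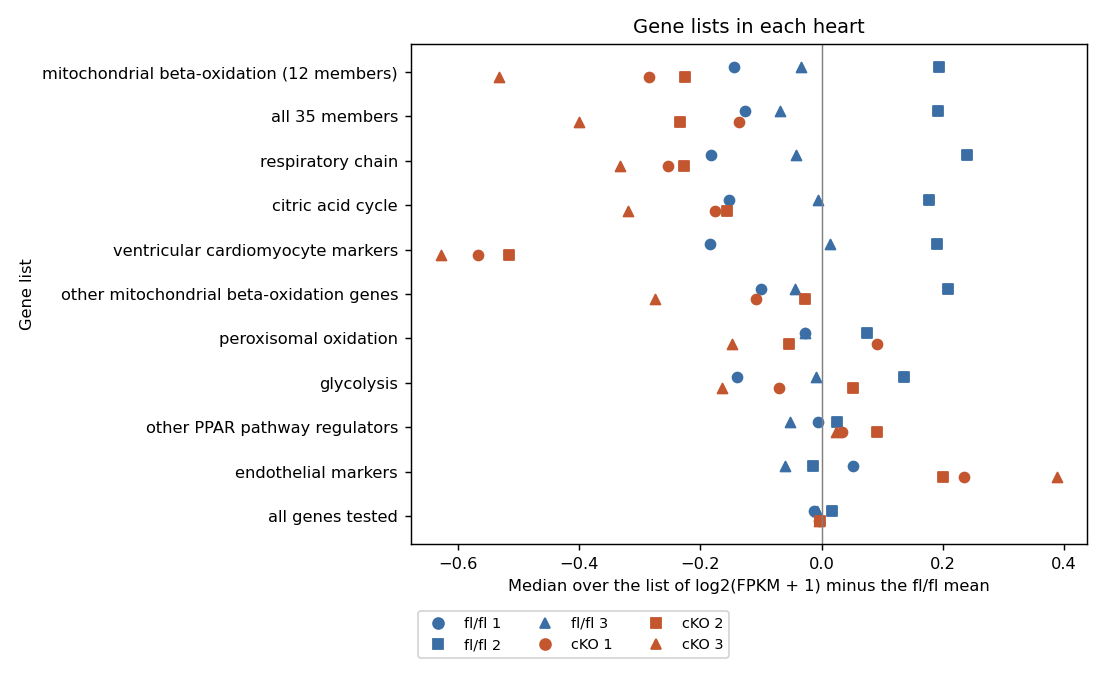
Each row is a gene list and each point a heart, placed by the median over the list of log2(FPKM + 1) minus the fl/fl mean; blue marks fl/fl, orange cKO, and the shapes mark replicates. Beta-oxidation, respiratory chain and citric acid cycle genes all have fl/fl 2 highest and cKO 3 lowest, while all genes tested stay near 0. The members as a whole, glycolysis, the other mitochondrial beta-oxidation genes and the ventricular cardiomyocyte markers have the same highest and lowest hearts.

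In order of level per length in fl/fl, Fabp3 led at 8416 FPKM, followed by Hadhb (1665), Lpl (1633), Etfb (1027), Acadm (972), Acaa2 (949), Acadl (830.1) and Cd36 (805 FPKM). The regulators and accessory genes closed the order, with Slc22a5 at 16.5, Ppara at 14.2, Ppard at 14.2, Angptl4 at 12.9 and Acot1 at 12.1 FPKM. Cpt1a, at 20.1 FPKM, and Ucp3, at 37.9 FPKM, the members with non-overlapping higher values in cKO, thus belonged to the less abundant part of the set. Of the 34 neighbouring pairs in this order, 21 had fl/fl means no further apart than the larger of their SDs, among them Hadhb and Lpl, and Ppara and Ppard. The other 13 were further apart, among them Fabp3 and Hadhb, and Lpl and Etfb.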

How the data were processed

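Polyadenylated RNA of whole hearts had been sequenced. TopHat 1.0.0, Cufflinks and Cuffdiff are the tools named in the submitters' processing notes. FPKM for each gene and library were deposited by the authors, beside a second table with group FPKM, p-values and q-values (the authors' deposited table). The lowest FPKM is 0.01, which stands in place of 0. The notes name mm10, but the build behind the deposited coordinates was not settled, so none are printed. The series text calls the libraries stranded while the kit named in the labels does not mark strand, so reads of overlapping antisense genes may not be separable. A single row with a failed value was left out.

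Log2(FPKM + 1) was compared between genotypes by limma 3.58.1 under R 4.3.3, using moderated two-sided tests with a mean-dependent variance. Genes entered if their mean reached 1 FPKM, which left 12103, and p-values were adjusted by Benjamini-Hochberg. This scale understates changes of low genes. The fit was tested on simulated data whose added changes were larger than that of any member, so changes of the members' size were not covered. Members, lists and alternatives were chosen with earlier results of these data known. Named genes are all members, any called pathway gene and the 2 smallest p per pathway list, except where stated. Fragment numbers are unknown, so no counting intervals are printed. Shared sequence was counted as 50-base stretches of GENCODE M21 transcripts, on both strands. Plots used matplotlib 3.10.9 (Python 3.11.15).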

Additional observations from a re-analysis of the deposited data

How the results depend on the processing

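Of 595 values of single members under 17 alternatives, 581 kept sign and side of the threshold, 13 turned sign and 1 passed it. Changing the filter, dropping the intensity trend, the replicate block and replicate 3 as a term cannot alter a log2 change in this balanced design. Under those settings no sign could turn, so the values kept there are no evidence of a stable sign. Sign turned with quantile normalization for Cd36 (0.081), Fabp3 (0.051), Acadl (0.022) and Hadh (0.033), within replicates 1 and 2 for Hadh (0.0011), and with array weights for Ucp2 (0.0044). With 1 library left out at a time, values of either sign were found for Ucp2 (-0.41 to 0.12), Rxra (-0.11 to 0.018) and Angptl4 (-0.81 to 0.22). The number of members called was 0 in every alternative except the replicate block, where it was 1 (Ucp3, limma adjusted p = 0.0387, from 0.0387 to 0.376 over all alternatives). The median log2 change of the members ran from -0.35 to -0.16 over these settings. Calls among the other pathway genes were 1 with quantile normalization, 1 with median-ratio scaling, 1 with array weights (Hk1 each time) and 2 with the replicate block (Gpam and Hk1). Over all genes limma called 14 with no filter, 38 without the intensity trend, 123 with replicate 3 as a term, 13 within replicates 1 and 2, 213 with the replicate block, and 13 to 50 without one library, against 71. Same-numbered hearts had correlations of their deviations of 0.09, 0.27 and 0.43 over genes, and cKO 1 correlated more with fl/fl 2 (0.15) than with fl/fl 1, so the numbers are not taken to pair the hearts. Heart fl/fl 3 correlated at -0.25 with cKO 1 and at -0.29 with cKO 2. Heart cKO 3 correlated at -0.08 with fl/fl 1 and at -0.33 with fl/fl 2. The unknown number of reads leaves the counting error of each value unknown. The cause of these shifts was not tested.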
